A study of Mus musculus with 10 samples.

Results

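Cytochrome P450 enzymes of families 1 to 4 were followed in the whole lung of male mice of the inbred C57BL/6 strain, which were 6 to 8 weeks old. Genes were taken where a probe set carried a single symbol made of Cyp, a family digit from 1 to 4, a subfamily letter and a number. Cyp2f2, the P450 of airway club cells, has such a symbol but was left out by name. This gave 47 genes of 12393 on the array, measured by 56 probe sets, and where a gene had several probe sets, the one whose mean over the 10 arrays was highest stood for it. One of the 47, Cyp2d13, is a transcribed pseudogene in RefSeq. Also left out were 4 probe sets that carry several symbols, at least 1 of them a P450 symbol, and 1 whose single P450 symbol has another form.

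Lungs of 5 mice kept in normoxia were compared with lungs of 5 mice exposed to intermittent hypoxia, in which inspired oxygen falls and recovers repeatedly. No transgene, deletion or drug is named for either group. The sources used here give neither the oxygen levels nor the length of exposure nor the hour at which lungs were taken. Each animal had 1 Affymetrix Mouse Genome 430A 2.0 array, so precision is limited by 5 arrays per group. The study is about the alveolar surface of adult mice under this exposure, and the comparison here asked which P450 transcripts differed between the groups.

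P450 enzymes are haem proteins, most of them in the endoplasmic reticulum, that add oxygen to their substrates with electrons passed on from NADPH by P450 reductase. Families 1 to 3 act mainly on foreign compounds and drugs, and also on steroids and arachidonic acid. Family 4 enzymes hydroxylate fatty acids and eicosanoids near the end of the chain. In the lung, P450 transcripts are concentrated in club cells, with others in type 2 cells, endothelium and leukocytes, and several are switched on by ligand-activated receptors such as AHR, CAR (gene Nr1i3), PXR (Nr1i2) and PPARα (Ppara).

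Levels are log2 probe set values, so a difference of 1 is a doubling of the array signal, and signals of different probe sets were not compared as amounts of RNA. The median of all 22626 probe set means was 7.70. The means of 11 members lay at or above it, and the other 36 are marked as dim because their signal may be largely background. A call is a limma adjusted p below 0.05 over all probe sets. Over the 10 arrays the medians ran from 7.69 to 7.73. Normoxia arrays 2, 3 and 4 had a narrower spread over probe sets (SD 1.89 to 1.93) than the remaining 7 arrays (SD 1.99 to 2.05). The labelled tissue showed its own markers, with mean levels of 14.6 for both Sftpc of type 2 cells and Scgb1a1 of club cells.

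After intermittent hypoxia 6 of the 47 genes were lower, none was higher and 41 did not pass the limma test. The 6 were Cyp2b10, Cyp2b9, Cyp2c54, Cyp2c39, Cyp2d26 and Cyp4f15. They make up 12.8% of the members, against a background of 3.60% lower calls among all genes counted with 1 probe set each and 3.43% among all probe sets. Higher calls made up 8.93% of all genes, and calls in either direction 11.9% of all probe sets. At an unadjusted limma p below 0.05, 13 members were lower and 3 were higher, against 12.7% and 19.9% of all genes. SAM, the permutation test named in the series' design text, called 13 lower and 2 higher, against 14.4% and 21.4% of all genes. In whole lung, fewer cells of a type and less RNA per cell cannot be told apart.

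Most of these calls were lost when certain single arrays were left out, but the called genes kept negative differences in each such fit. Over all probe sets 1003 to 4800 passed in these fits, against 2699 with all arrays. Of the 47 genes 27 had their highest value on normoxia array 2, 3 or 4, 7 on another normoxia array and 13 on a hypoxia array. Without normoxia arrays 2 to 4 together, which left 2 normoxia arrays, none of the members passed the limma test, and 16 of all probe sets did. The median difference of the members was then -0.02, against -0.07 with all arrays. With any single array left out, between 1 and 11 members were lower and between 0 and 2 were higher. Cyp2b10 was the member that stayed lower in all 10 of these fits.

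The upstream sequences of 3 members are shown because Cyp2b10 and Cyp2c39 fell while Cyp1a1 had the widest positive difference. Each run ends at the base before a transcription start in RefSeq (GRCm38.p6), which for Cyp1a1 lies inside the gene's outermost limits. The Cyp2b10 stretch lies at chr7:25897553-25897657, that of Cyp2c39 at chr19:39347241-39347345 and that of Cyp1a1 at chr9:57697508-57697612, all on the plus strand. Capitals mark matches on either strand to GCGTG (the core bound by AHR, which also matches the core bound by hypoxia-inducible factors), AGGTCA (an element of nuclear receptors), TGTTCT (an element of the glucocorticoid receptor), TTATGNAA (the D-box of PAR bZIP factors such as DBP) and TATAAA (the TATA box).
Cyp2b10: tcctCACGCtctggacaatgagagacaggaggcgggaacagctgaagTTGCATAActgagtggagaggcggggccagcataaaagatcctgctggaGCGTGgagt
Cyp2c39: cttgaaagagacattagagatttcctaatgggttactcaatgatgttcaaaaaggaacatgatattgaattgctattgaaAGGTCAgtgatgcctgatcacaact
Cyp1a1: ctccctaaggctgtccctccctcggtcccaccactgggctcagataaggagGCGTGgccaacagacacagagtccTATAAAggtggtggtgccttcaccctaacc

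In Cyp2b10 the AHR core began 101 and 9 bases before the start and the D-box 58 bases before it. Cyp1a1 held the AHR core at 54 bases and a TATA box at 30 bases before the start, and Cyp2c39 held the nuclear receptor element at 25 bases. Cyp2c39 has 2 promoter entries, of which the one at the gene's outer start is shown. Its AGGTCA match was found in the shown entry only. The other entry holds TGTTCT on the reverse strand 23 bases before its start. Which of these starts the RNA on the arrays came from was not tested. RefSeq promoters were found for 38 of the 47 genes, 44 entries in all. In the 250 bases before the start, 36.4% of the 44 entries held TATAAA, against 12.4% of all 32851 promoters. The shares were 25.0% against 14.0% for AGGTCA, 22.7% against 16.1% for TGTTCT, 22.7% against 28.2% for GCGTG and 6.82% against 3.07% for TTATGNAA. These are matches of letters in a short window, chosen with the expression values known, and several entries belong to 1 gene.

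Cyp2b10, a P450 of foreign-compound and steroid metabolism and the classical target of CAR, fell to 0.757 of its normoxia level (95% interval of the log2 difference -0.60 to -0.20). On normoxia arrays 1 to 5 its levels were 12.87, 12.67, 12.57, 12.62 and 12.47, and on hypoxia arrays 1 to 5 they were 12.18, 12.25, 12.43, 12.34 and 12.00. On this probe set the groups did not overlap, with normoxia array 5 the lowest control and hypoxia array 3 the highest exposed lung. The log2 difference was -0.40 (SE 0.09, limma adjusted p = 0.0184). Its other probe sets differed by -0.34 (adjusted p = 0.0288) and -0.36 (adjusted p = 0.0528), and on both of them the groups overlapped. The difference ran from -0.45 to -0.34 with any single array left out and was -0.43 without normoxia arrays 2 to 4, then with a limma adjusted p of 0.273 and 2 normoxia arrays left.

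Cyp2b9, a relative of Cyp2b10 from the same gene cluster, was a dim probe set and fell to 0.810 of its normoxia level. Its levels were 6.88, 6.98, 7.09, 6.99 and 6.72 in normoxia and 6.60, 6.46, 6.67, 6.76 and 6.65 in intermittent hypoxia. Normoxia array 5 lay below hypoxia array 4, and the other normoxia arrays lay above every hypoxia array. Group means differed by -0.30 (SE 0.08, limma adjusted p = 0.0315). Leaving out normoxia array 2, 3 or 4, or hypoxia array 1, 2 or 3, ended the call (adjusted p up to 0.0810), and without normoxia arrays 2 to 4 the difference was -0.17.

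Cyp2c54, one of the arachidonic acid epoxygenases of the Cyp2c subfamily, had the largest negative difference of the 47, to 0.50 of the normoxia level. In normoxia the levels were 8.73, 9.26, 9.70, 9.62 and 8.01, and in intermittent hypoxia they were 8.37, 7.40, 8.01, 8.36 and 8.20. Normoxia arrays 2, 3 and 4 were the highest, while normoxia array 5 lay among the hypoxia arrays. The mean fell by 1.0 on a log2 scale (SE 0.29, limma adjusted p = 0.0414). The call was kept only without normoxia array 1 or 5 among the 10 single-array fits, with adjusted p values up to 0.109 in the others, and it was lost with quantile normalization (0.0501) and with eBayes trend and robust options (0.0901). Without normoxia arrays 2 to 4 the difference was -0.31.

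Cyp2c38, in the same subfamily, was also highest on normoxia arrays 2, 3 and 4 but did not pass the test. Its levels were 7.65, 8.07, 8.23, 8.32 and 7.67 in normoxia and 7.46, 7.51, 7.59, 7.59 and 7.78 in intermittent hypoxia. Its log2 difference was -0.40 (SE 0.13, limma adjusted p = 0.0572), and without normoxia arrays 2 to 4 it was -0.07. Leaving out normoxia array 1, normoxia array 5 or hypoxia array 5 gave adjusted p values of 0.0226, 0.0190 and 0.0474.

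Cyp2c39, a dim probe set of an enzyme that hydroxylates retinoic acid, did not overlap between the groups. Its levels were 6.54, 6.88, 6.73, 6.62 and 6.55 in normoxia and 6.22, 6.47, 6.38, 6.43 and 6.47 in intermittent hypoxia. Hypoxia minus normoxia gave -0.27 (SE 0.08, limma adjusted p = 0.0447), or 0.831 of the normoxia level. The call ended when any of normoxia arrays 2 to 4 or hypoxia arrays 1 to 4 was left out (adjusted p up to 0.105) and with quantile normalization (0.0701), and the gene differed by -0.15 without normoxia arrays 2 to 4. In RefSeq its gene overlaps that of Cyp2c38 on the other strand.

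Cyp2d26, a dim member of the drug-metabolising Cyp2d subfamily, fell to 0.728 of its normoxia level. Its levels were 6.47, 6.84, 6.75, 6.72 and 6.17 in normoxia and 6.24, 5.95, 6.30, 6.05 and 6.14 in intermittent hypoxia. Only normoxia array 5 lay within the range of the exposed lungs. Its log2 difference was -0.46 (SE 0.12, limma adjusted p = 0.0286). Omitting normoxia array 2, 3 or 4, or hypoxia array 1, 2 or 4, ended the call (adjusted p up to 0.0764), and without normoxia arrays 2 to 4 the difference was -0.19.

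Cyp4f15, a member of the subfamily that hydroxylates leukotrienes and fatty acids, was the family 4 gene that fell, and its mean of 7.65 lay just under the median of all probe sets. Its levels were 7.70, 7.65, 7.86, 7.85 and 7.97 in normoxia and 7.36, 7.42, 7.58, 7.49 and 7.64 in intermittent hypoxia, without overlap. The log2 difference was -0.31 (SE 0.08, limma adjusted p = 0.0272), or 0.806 of the normoxia level. The call did not survive leaving out normoxia array 3 or 4, or hypoxia array 1, 2 or 4 (adjusted p up to 0.0689). Without normoxia arrays 2 to 4 the difference was -0.34, with an adjusted p of 0.275. The 3 members whose groups did not overlap were all lower, 3 of 47, against 2.85% of all genes with lower values that did not overlap.

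**Figure D1:**
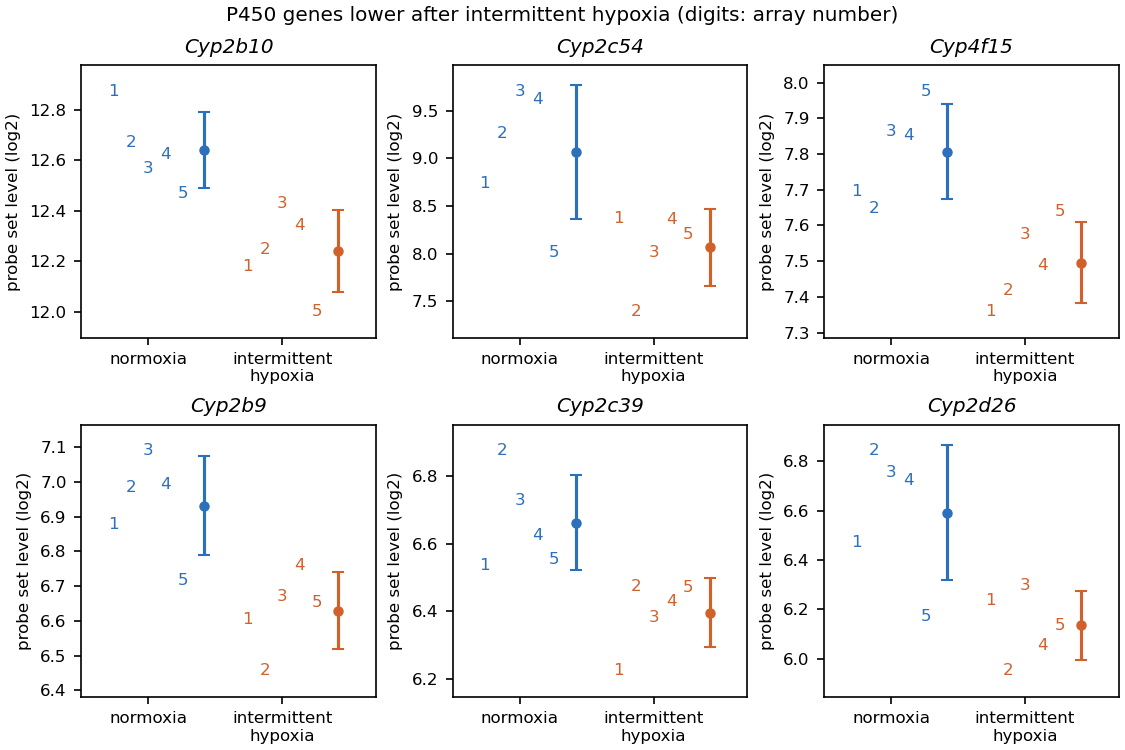
Log2 probe set levels of the 6 P450 genes that passed the limma test, with each digit standing for the array of that number in normoxia (blue) or intermittent hypoxia (orange) and points with bars for the group mean ± SD (n = 5 arrays). The vertical axes differ between genes and do not start at 0. Cyp2b10, Cyp4f15 and Cyp2c39 do not overlap between groups, while normoxia array 5 lies among the hypoxia arrays for Cyp2c54, Cyp2b9 and Cyp2d26.

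Cyp2s1 and Cyp2d22, both above the median of all probe sets, did not pass. Cyp2s1, a P450 of airway and other epithelia, had levels of 11.82, 11.84, 11.83, 11.61 and 12.15 in normoxia and 11.88, 11.83, 11.73, 11.89 and 11.80 in intermittent hypoxia. Its log2 difference was -0.02, with a 95% interval from -0.21 to 0.16. Cyp2d22, of the drug-metabolising Cyp2d subfamily, had levels of 9.41, 9.28, 9.36, 9.46 and 9.78 in normoxia and 9.20, 9.54, 9.52, 9.12 and 9.10 in intermittent hypoxia. It differed by -0.16 (interval -0.41 to 0.08), and its other probe set by -0.22 (limma adjusted p = 0.224).

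Cyp2e1, which oxidises ethanol and other small molecules and is expressed in liver and fat, varied widely between animals. Its levels were 10.09, 9.53, 10.76, 10.45 and 11.60 in normoxia and 9.78, 10.24, 9.60, 8.93 and 9.49 in intermittent hypoxia. The groups overlapped, and the highest value stood on normoxia array 5 and the lowest on hypoxia array 4. Means differed by -0.88 (SE 0.32, interval -1.58 to -0.18) and did not pass (limma adjusted p = 0.0868, and 0.0427 without normoxia array 2).

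The adipocyte hormone gene Adipoq was highest and lowest on the same arrays as Cyp2e1. Its levels were 7.71, 7.24, 8.90, 8.18 and 9.80 in normoxia and 7.56, 8.36, 8.01, 6.02 and 7.49 in intermittent hypoxia. Of 8 adipocyte markers 6 were measured and 2 were lower, Lpl by -0.49 (SE 0.12, limma adjusted p = 0.0224) and Retn by -0.35 (SE 0.10, adjusted p = 0.0464), with a list median of -0.42. Lpl kept its call in 8 of 10 single-array fits (up to 0.0531) and Retn in 2 (up to 0.116). The log2 summed adipocyte signal of normoxia arrays was 12.58 to 13.20, and that of hypoxia arrays 11.81 to 12.64. This sum is weighted towards the brightest probe set of the list, that of Lpl (mean level 11.88). Fabp4, a fatty acid carrier of fat cells, differed by -1.24 (limma adjusted p = 0.0504). Adipoq was named after its values were seen. The part of attached fat in the Cyp2e1 difference was not tested.

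Along the chromosome the members of family 2 form clusters of related genes, and neighbours did not share 1 value. In the order Cyp2s1, Cyp2b10, Cyp2b13, Cyp2b9, Cyp2b19, Cyp2g1 and Cyp2a12 the log2 differences were -0.02, -0.40, -0.06, -0.30, -0.18, -0.09 and -0.25. All were negative, and the pair that passed had Cyp2b13 between them, whose interval ran from -0.18 to 0.06. Of the 4 Cyp2b genes 2 were lower, with a median of -0.24.

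The 11 Cyp2c genes had 2 lower calls, 9 negative differences and a median of -0.26. In the order Cyp2c55, Cyp2c65, Cyp2c29, Cyp2c39, Cyp2c38, Cyp2c68, Cyp2c37, Cyp2c54, Cyp2c50, Cyp2c70 and Cyp2c23 the differences were -0.26, -0.32, -0.04, -0.27, -0.40, -0.02, 0.06, -1.0, 0.22, -0.28 and -0.12. Genes are ordered by their lower limit in RefSeq. For Cyp2c39, which overlaps Cyp2c38, that limit is its outer start, and its place before Cyp2c38 rests on it. Cyp2c54 thus stood between Cyp2c37 and Cyp2c50, both with positive values that did not pass. Cyp2c65 and Cyp2c70, both dim, came close to the threshold (limma adjusted p = 0.0505 and 0.0614). Cyp2c65 had levels of 5.19, 5.64, 5.56, 5.46 and 5.26 in normoxia and 5.34, 5.00, 5.04, 5.02 and 5.14 in intermittent hypoxia, so that hypoxia array 1 lay above normoxia arrays 1 and 5. For Cyp2c70 the levels were 6.53, 6.93, 6.76, 6.88 and 6.72 against 6.52, 6.71, 6.36, 6.52 and 6.32, with hypoxia array 2 above normoxia array 1. Cyp2c65 passed when normoxia array 1 (0.0239), normoxia array 5 (0.0275) or hypoxia array 1 (0.0440) was omitted, and Cyp2c70 when normoxia array 1 (0.0258) or hypoxia array 2 (0.0467) was omitted. Their differences were -0.12 and -0.14 without normoxia arrays 2 to 4.

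The 7 Cyp2d genes had 1 lower call and a median of -0.03. In the order Cyp2d22, Cyp2d10, Cyp2d9, Cyp2d12, Cyp2d34, Cyp2d13 and Cyp2d26 the differences were -0.16, 0.09, 0.12, 0.06, -0.03, -0.22 and -0.46. The members of these clusters are close in sequence, so a probe set may also catch RNA of a neighbour, and this was not tested.

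**Figure D2:**
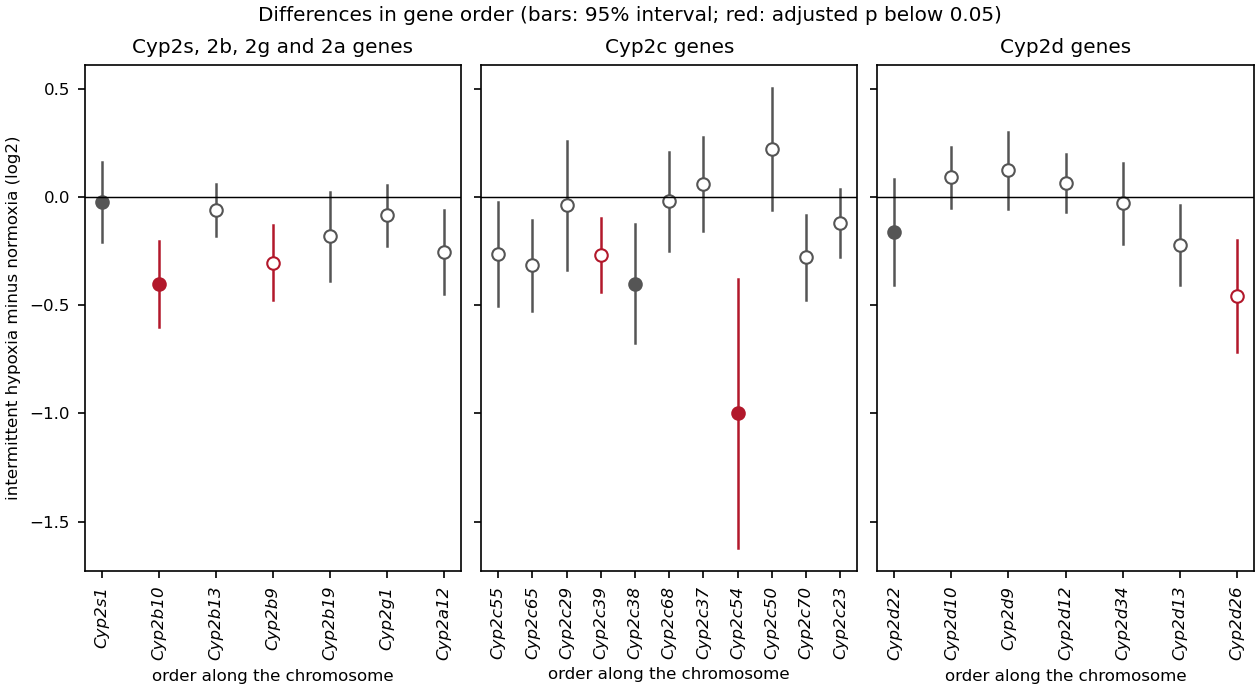
Log2 difference (intermittent hypoxia minus normoxia, n = 5 arrays each) of family 2 genes in their order along 3 chromosomes, with bars for the 95% interval of the limma fit, red for an adjusted p below 0.05 and filled points for genes at or above the median level. Spacing is by order of the lower RefSeq limits and not by distance, and Cyp2c39 is placed by its outer start. Cyp2c54 reaches -1.0 between neighbours at 0.06 and 0.22, and Cyp2b10 and Cyp2b9 are lower on either side of Cyp2b13.

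The remaining family 2 members were dim. Cyp2a12 had levels of 6.99, 7.15, 7.38, 7.09 and 6.82 in normoxia and 6.85, 6.77, 6.83, 6.85 and 6.85 in intermittent hypoxia, with normoxia array 5 alone among the exposed lungs. Cyp2a12 (-0.25, limma adjusted p = 0.0768), Cyp2c55 (adjusted p = 0.125) and Cyp2d13 (adjusted p = 0.100) passed when normoxia array 5 was left out, with adjusted p values of 0.0167, 0.0212 and 0.0270. The differences of these genes were -0.07, -0.07 and -0.08 without normoxia arrays 2 to 4. The Cyp2j genes numbered 4 (Cyp2j5, Cyp2j6, Cyp2j9 and Cyp2j13). Their differences lay between -0.08 and 0.01, and none passed. Over all 30 genes of family 2, 5 were lower, none was higher and 24 had negative differences.

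Family 1 holds the classical targets of AHR, the receptor of dioxin-like and other planar aromatic compounds, and its members had differences of both signs that did not pass the test. Cyp1a1, a strongly inducible target in lung endothelium and epithelium, had levels of 8.53, 8.13, 8.21, 9.32 and 9.64 in normoxia. In intermittent hypoxia it had 9.26, 9.50, 9.22, 11.35 and 10.67. Hypoxia arrays 4 and 5 stood above all others, and the 3 other exposed lungs lay within the range of the controls.

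The difference of Cyp1a1 was 1.23 (SE 0.42, interval 0.34 to 2.13), or 2.35-fold, with a limma adjusted p of 0.0681. It passed without normoxia array 5 (adjusted p = 0.0295), with SAM (but not with the mean number of false calls, 0.0522), with arrayWeights and in a test restricted to the brighter part of the array, from the median up. The difference was 0.92 (limma adjusted p = 0.640) without normoxia arrays 2 to 4. Cyp1b1, an oestrogen hydroxylase of stromal and vascular cells, differed by -0.23 (SE 0.11, limma adjusted p = 0.170). Its levels were 8.11, 8.26, 8.50, 8.56 and 8.68 in normoxia and 8.16, 8.14, 7.96, 8.30 and 8.39 in intermittent hypoxia, which overlap. Cyp1a2, a mainly hepatic enzyme and dim here, differed by -0.09 (interval -0.26 to 0.09).

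The receptor gene Ahr itself rose by 0.59 (SE 0.15, limma adjusted p = 0.0281). Its levels were 10.81, 10.47, 9.90, 10.53 and 10.84 in normoxia and 11.22, 11.26, 10.90, 11.01 and 11.10 in intermittent hypoxia, without overlap. The Ahr call ended when normoxia array 2 or 4, or hypoxia array 1 or 2, was left out (adjusted p up to 0.0678), and without normoxia arrays 2 to 4 it differed by 0.27. Its part in the Cyp1a1 values was not tested.

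Family 3 comprised 5 dim genes, none of which passed. Cyp3a11, the mouse counterpart of the main human drug-metabolising P450 and a target of PXR, had levels of 6.64, 6.55, 6.88, 6.36 and 6.03 in normoxia and 7.54, 7.97, 6.07, 7.86 and 6.57 in intermittent hypoxia. Hypoxia arrays 1, 2 and 4 were above all controls, and arrays 3 and 5 lay among them. Cyp3a11 differed by 0.71 (SE 0.32, limma adjusted p = 0.149) and passed without hypoxia array 3 (0.99, adjusted p = 0.0415). Cyp3a13, Cyp3a16, Cyp3a25 and Cyp3a44 had differences from -0.23 to 0.12.

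Albumin, the defining transcript of hepatocytes, was also high on some of these arrays. Alb levels were 8.60, 7.26, 7.25, 6.99 and 7.14 in normoxia and 8.28, 9.62, 7.29, 9.20 and 8.39 in intermittent hypoxia. Hypoxia arrays 2 and 4 had the highest values of both Alb and Cyp3a11, followed by normoxia array 1 for Alb and hypoxia array 1 for Cyp3a11. Of 10 hepatocyte markers 9 were measured, 1 was lower (Tat, -0.27, limma adjusted p = 0.0392) and none was higher, while 4 were higher at an unadjusted p below 0.05 and the list median was 0.23. Tat kept its call in 4 of 10 single-array fits (up to 0.0977) and not with quantile normalization (0.0509). The log2 of the markers' summed signal was 9.95 to 10.47 on normoxia arrays and 9.96 to 11.07 on hypoxia arrays. Alb differed by 1.11 (SE 0.39, limma adjusted p = 0.0791). The part of liver-derived RNA in the Cyp3a11 values was not tested.

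**Figure D3:**
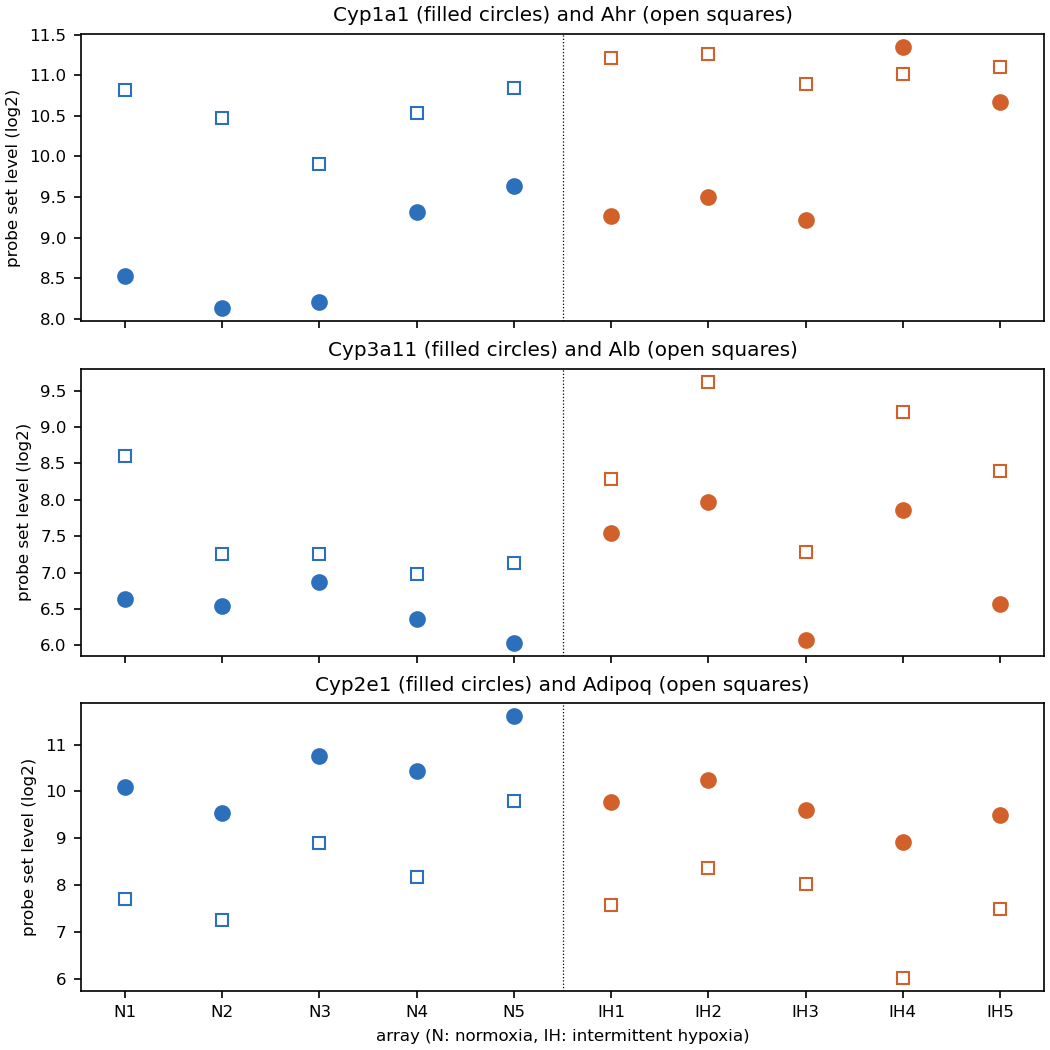
Log2 probe set levels on each array (N1 to N5 normoxia, IH1 to IH5 intermittent hypoxia) of Cyp1a1 with Ahr, Cyp3a11 with Alb and Cyp2e1 with Adipoq, members as filled circles and the companion genes as open squares. Each panel has its own vertical axis, and the levels of different probe sets are not amounts of RNA that can be compared. Cyp1a1 is highest on IH4 (11.35), Cyp3a11 on IH2 (7.97) and Cyp2e1 on N5 (11.60).

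Family 4 held 9 genes, 1 lower and 8 not past the test. Cyp4b1, a P450 strongly expressed in lung that activates pneumotoxins, had levels of 13.10, 12.94, 12.84, 12.96 and 12.97 in normoxia and 12.97, 12.93, 13.12, 12.82 and 12.76 in intermittent hypoxia. Its log2 difference was -0.04 with a 95% interval from -0.21 to 0.12, so changes in signal beyond 0.864-fold and 1.09-fold lay outside the interval. Cyp4v3, a fatty acid hydroxylase, had levels of 10.14, 9.78, 9.88, 9.82 and 9.95 in normoxia and 9.87, 10.20, 10.21, 9.96 and 9.93 in intermittent hypoxia. It differed by 0.12 (interval -0.07 to 0.32), and its groups overlapped.

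Cyp4f18, which inactivates the leukocyte attractant leukotriene B4 in mouse neutrophils, had a difference of the other sign from Cyp4f15 that did not pass. Its levels were 8.14, 7.60, 7.77, 7.85 and 7.94 in normoxia and 8.18, 8.10, 7.98, 8.31 and 8.20 in intermittent hypoxia. Only normoxia array 1 lay within the range of the exposed lungs. Its mean differed by 0.29 (SE 0.10, limma adjusted p = 0.0617), and it passed without normoxia array 1 (0.0203) or 5 (0.0482). The difference was 0.12 (limma adjusted p = 0.774) without normoxia arrays 2 to 4. Cyp4f13, Cyp4f14, Cyp4f16, Cyp4a14 and Cyp4a31 were dim, with differences from -0.23 for Cyp4f14 to 0.05 for Cyp4f16.

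**Figure D4:**
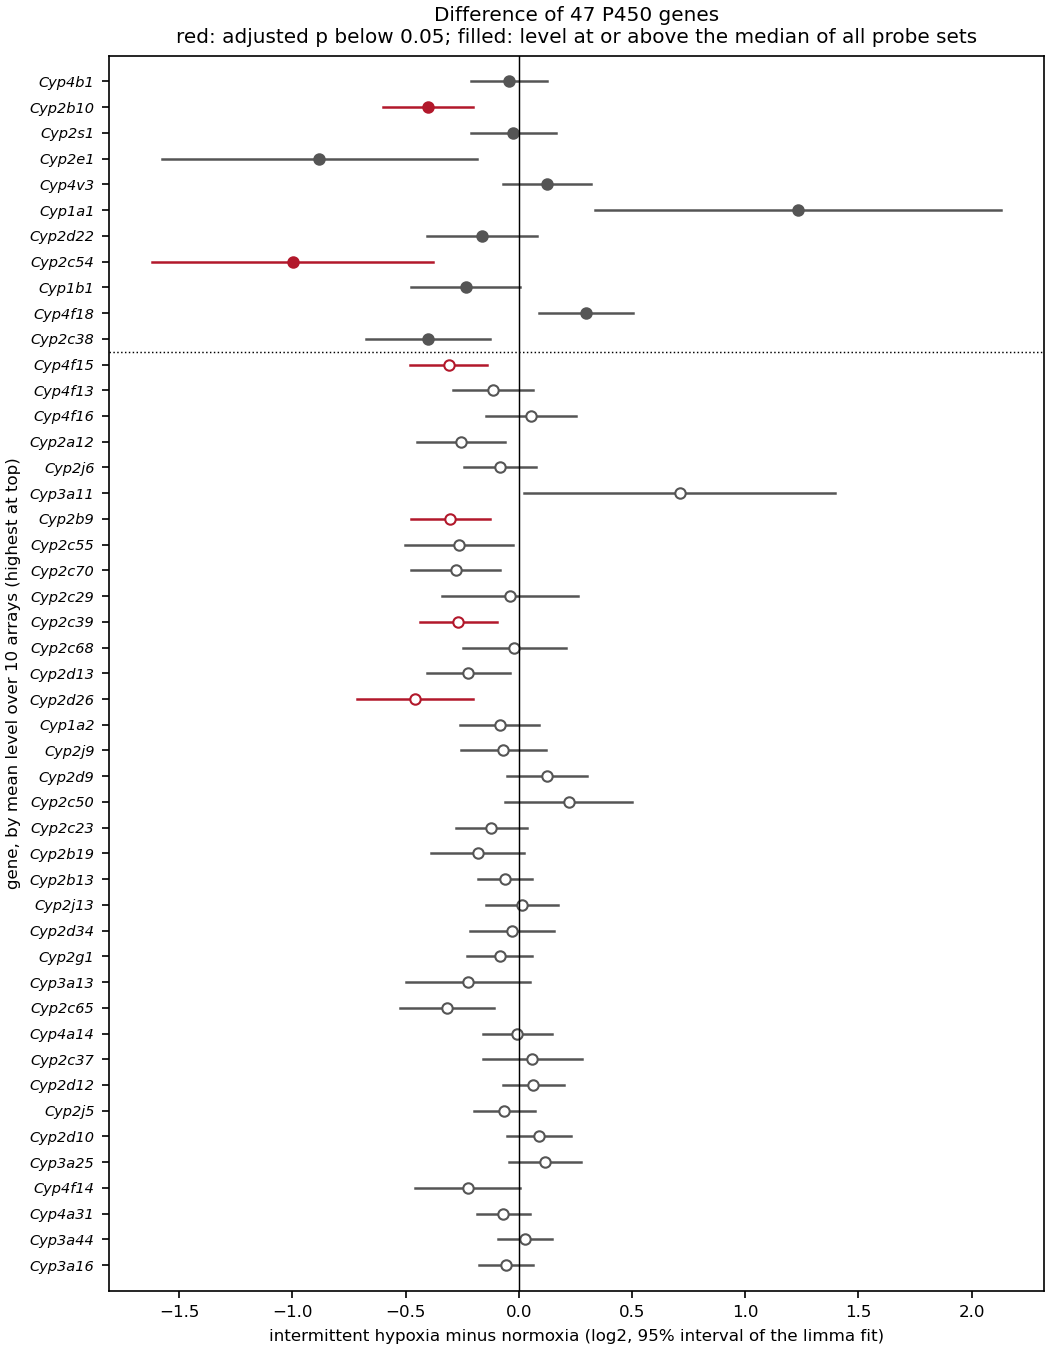
Log2 difference (intermittent hypoxia minus normoxia, n = 5 arrays each) of all 47 P450 genes with the 95% interval of the limma fit, ordered by mean probe set signal and split by a dotted line at the median of all probe sets. Red marks the 6 genes with an adjusted p below 0.05, filled points the 11 genes at or above the median. Most points lie left of 0 (34 of 47), and the widest intervals belong to Cyp1a1, Cyp2e1, Cyp3a11 and Cyp2c54.

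The share of negative differences was read against genes of like signal, because dim probe sets had negative differences more often than bright ones. With quantile normalization 31 of the 47 were negative in place of 34, and without normoxia arrays 2 to 4 together 28 were, with 10 uncalled members of changed sign. For these fits the shares over all genes were not counted, and the comparisons by signal that follow are for the deposited values only. Of the 36 dim members 26 (72.2%) had a negative difference, against 67.5% of all genes below the median. Their 4 lower calls stood against 4.43% of such genes. Of the 11 members at or above the median, 8 (72.7%) had a negative difference, against 32.0% of all genes there. Their 2 lower calls, Cyp2b10 and Cyp2c54, stood against 3.00% of such genes. The median difference was -0.07 for all members and 0.01 for all genes.

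The nuclear receptors and other regulators of P450 transcription moved in both directions. Of 22 measured genes of 23 listed, 3 were higher and 3 lower, with a median of -0.04. The clock genes Nr1d1 (2.29) and Dbp (2.09) were higher, and Hlf, like Dbp a D-box factor, was lower (-0.48, limma adjusted p = 0.0135). Ppara, the receptor that drives the Cyp4a genes, was dim (mean level 7.24) and lower by -0.50 (SE 0.11, limma adjusted p = 0.0134). Cyp4a14 and Cyp4a31, dim at mean levels of 5.09 and 4.47, differed by -0.01 and -0.07. Background may hide a difference at such levels, and the part of Ppara in the Cyp4a values was not tested.

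Nr1i3, which encodes CAR, was lower (log2 difference -0.44, SE 0.10, limma adjusted p = 0.0178). It was dim, with levels of 6.14, 6.54, 6.61, 6.65 and 6.37 in normoxia and 5.82, 6.05, 6.00, 6.09 and 6.16 in intermittent hypoxia, and normoxia array 1 lay below hypoxia array 5. Nr1i3 lost its call without normoxia array 4 (adjusted p = 0.0538) and differed by -0.23 without normoxia arrays 2 to 4. Its part in the Cyp2b10 difference was not tested. Ahr and Nr1i3 were named after their values were seen.

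Electron partners and haem synthesis showed no call. Of 14 measured genes of 16 listed, none passed the limma test, 5 were higher at an unadjusted p below 0.05, and the median was 0.09. Cyb5b and Cyb5r3, a cytochrome b5 and its reductase, differed by 0.26 and 0.31 (limma adjusted p = 0.0535 and 0.0536).

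Other enzymes of foreign-compound metabolism had 2 higher and 4 lower calls among 29 measured genes of 34 listed, with a median of -0.06. The sulfotransferase gene Sult1a1 was lower by -0.78 (SE 0.13, limma adjusted p = 0.00601), with normoxia levels of 11.04 to 11.24 and hypoxia levels of 10.05 to 10.83. Fmo2, the flavin monooxygenase of lung, differed by -0.26 (SE 0.06, adjusted p = 0.0228) and the carboxylesterase Ces1d by -0.30 (SE 0.07, adjusted p = 0.0206), both without overlap. Sult1d1 was lower by -0.60. Sult1a1 kept its call without any single array, Fmo2 lost it without hypoxia array 1 (0.0543), Ces1d without normoxia array 2 (0.0518) and Sult1d1 in 5 of 10 such fits (up to 0.0802).

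P450 genes of families 5 and above had 1 higher and 1 lower call among 16 measured of 20 listed. Cyp51, the sterol demethylase of cholesterol synthesis, was higher by 0.45 (SE 0.10, limma adjusted p = 0.0148) and kept its call without any single array. Cyp11b2, an adrenal steroid enzyme and dim here (mean level 7.42), was lower by -0.31 (adjusted p = 0.0486). It kept its call in 4 of 10 such fits (adjusted p up to 0.122) and not with quantile normalization (0.0551).

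Genes that handle arachidonic acid outside the P450s had 2 higher and 2 lower calls among 14 measured of 17 listed, with a median of -0.03. Hpgd, which inactivates prostaglandins, was lower by -0.51 (SE 0.10, limma adjusted p = 0.0118), with normoxia levels of 13.09 to 13.50 and hypoxia levels of 12.43 to 12.87. Alox5ap, needed for leukotriene synthesis, differed by 0.41 (adjusted p = 0.0256), Alox15 by -0.48 (0.0388) and Ptgr1 by 0.32 (0.0465). Hpgd kept its call without any single array, and the other genes kept it in 5, 3 and 1 of 10 such fits (adjusted p up to 0.0664, 0.100 and 0.117). With quantile normalization Hpgd kept its call (0.00299), and Alox5ap, Alox15 and Ptgr1 lost theirs (0.0989, 0.0509 and 0.169). Alox15 was dim (mean level 7.01).

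Markers of the cells that hold lung P450s were compared beside the members. Of 10 club cell markers none was called higher or lower by limma, and 1, Bpifa1, was lower at an unadjusted p below 0.05 (-0.87, adjusted p = 0.0570). The club cell P450 Cyp2f2 had normoxia levels of 14.26 to 14.41 and hypoxia levels of 14.22 to 14.42, a difference of -0.05 (SE 0.06). The highest values of the arrays were 14.75 to 14.94, so Cyp2f2 lay near the top of the scale, where differences may be flattened. The log2 summed club cell signal was 16.72 to 16.87 on normoxia arrays and 16.61 to 16.78 on hypoxia arrays. This sum is weighted towards equally bright probe sets such as that of Scgb1a1 (mean level 14.6). The median difference of the list was -0.06. Of 8 type 2 cell markers 1 was higher (median 0.08), of 6 type 1 cell markers 2 were higher (median 0.23), of 5 ciliated cell markers 1 was higher (median -0.07) and of 9 endothelial markers none was called (median 0.15, with 2 higher at an unadjusted p below 0.05).

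Fibroblast and macrophage markers were higher in 5 of 9 and 3 of 7 cases, with medians of 0.32 and 0.41. The macrophage genes Adgre1 (-0.21) and Siglec1 (-0.16) were lower at an unadjusted limma p below 0.05 and did not pass after adjustment. Striated muscle markers were lower in 2 of 8 (median -0.15). The part of these marker differences in the P450 differences was not tested.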

How the data were processed

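Whole-lung RNA of 10 mice was measured, 1 array per animal. The authors deposited log2 probe set levels. Per the submitters' processing notes RMA and affy were involved, and neither a version nor a setting is listed. Because the spread over probe sets differs between arrays, the normalization used is uncertain. This bears on the share of higher calls among all called probe sets (71.2%, or 59.1% after quantile normalization). All 22626 probe sets were fitted with limma 3.58.1 in R 4.3.3 (lmFit, eBayes, two-sided, Benjamini-Hochberg over all probe sets, threshold 0.05), and 2699 passed (11.9%). P-values reflect the spread between animals.

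Symbols came from the platform's annotation table (1 symbol for 20380 probe sets, several for 691, none for 1555). All 47 members matched a RefSeq entry. The members and gene lists were chosen with earlier results of these data known. Every member could be named; from each pathway list up to 4 genes with the smallest p that passed and up to 2 others, and from each marker list up to 3, with exceptions marked.

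Alternatives were SAM with 100 permutations, a replicate block, quantile normalization, median centring, a restriction to probe sets from the median up, eBayes with trend and robust options, arrayWeights, averaging each gene's probe sets, each array left out, and normoxia arrays 2 to 4 left out together. SAM with the mean in place of the median number of false calls was added after the data were seen. An uncalled difference was given no direction in judging alternatives. Both tests were run on data simulated from each probe set's mean and spread (22626 probe sets, 200 changed, independent noise). There limma recovered 68% of log2 changes of 0.5 and 97% of changes of 1, with 6.25% of 176 calls false. SAM recovered 71% and 98%, with 6.63% of 181 false. In the real data 2699 probe sets passed limma and normoxia arrays 2 to 4 shared a narrower spread, so these rates may not hold there.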

Additional observations from a re-analysis of the deposited data

Results flagged for a closer look

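Among 94 sets of 5 arrays (47 genes in each group) 2 held an array far from the other 4, where chance gives about 1 in 20. Cyp4f13 on hypoxia array 2 was at 7.25, while the other 4 hypoxia arrays ran from 7.51 to 7.53. Cyp2a12 on hypoxia array 2 was at 6.77, while the others ran from 6.83 to 6.85. Both gaps are small on the log2 scale and stand out because the other 4 arrays lay close together.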

How the results depend on the processing

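Against 0 higher and 6 lower members and 2699 probe sets in all, SAM gave 2, 13 and 7816, SAM with the mean number of false calls 1, 10 and 4521, and arrayWeights 2, 10 and 4132. A restriction to probe sets from the median up gave 2 higher and 3 lower among 11 members. Averaging each gene's probe sets gave 7 lower members and 1605 of 12393 genes. The replicate block gave 1 higher and 4 lower members and 1755 probe sets. Without normoxia arrays 2 to 4 none of the members and 16 probe sets passed. With 1 array left out, 0 to 2 members were higher, 1 to 11 lower and 1003 to 4800 probe sets passed. Quantile normalization gave 0 higher and 4 lower, median centring 0 and 6, and eBayes with trend and robust options 0 and 7. No call changed sign under any of these. The cause of these shifts was not tested, apart from the fewer arrays or genes in some fits. Of the 6 genes, all kept their calls with both forms of SAM, arrayWeights, centring and averaged probe sets, 5 with eBayes options, 4 with quantile normalization and 3 with the block.

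The labels do not say whether replicate numbers shared by the groups pair the animals, and the values showed no clear pairing. Deviations of arrays with the same number correlated between -0.24 and 0.22, and 1 of 5 normoxia arrays correlated best with its own number. These 5 correlations cannot exclude a pairing. The replicate block left Cyp2b9, Cyp2c39 and Cyp2c54 at adjusted p values of 0.0522, 0.0534 and 0.0518 and called Cyp1a1 and Cyp2c55. Signal limits the 36 dim members, for which background may hide differences.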
